A study of Mus musculus with 6 samples.

Results

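Globins are the oxygen-carrying protein chains of hemoglobin, and the alpha-globin, beta-globin, theta-globin and zeta-globin genes of the mouse, together with the gene of the alpha-globin chaperone, were examined in spleens of Rag2/pfp KO and wild-type mice. The genes sought were Hba-a1, Hbb-b1, Hbb-b2, Hbq1b, Hba-x and Ahsp, and every probe whose annotated gene symbol, or an older name of it, matched was taken, whatever its signal. Of the 6 genes, 5 had a probe, each with 1, which makes 5 of the 25697 probes and 5 of the 16590 named genes on the array. No probe carries the current symbol Hbb-b1. The probe annotated as Hbb-bt was taken in its place, because the transcript record it was designed to was called Hbb-b1 in older annotation, and it is called Hbb-bt here. Ahsp, the chaperone, is not analysed here.

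Spleen RNA was hybridised to 6 Illumina Mouse Ref-8 v2 expression arrays. There were 3 arrays of Rag2/pfp KO spleen, from mice with disrupted Rag2, a subunit of the antigen receptor recombinase, and disrupted pfp, the older name of the perforin gene Prf1, and 3 arrays of wild-type spleen. The labels give no strain, age or sex, and do not say whether the arrays of a group came from separate animals, and so the p-values below describe the scatter of these arrays, some of which may be technical. No treatment of the tissue to remove red cells is given either.

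Red cells and their precursors make hemoglobin from alpha-type and beta-type chains, which assemble with heme into a tetramer. In mice the alpha-type genes lie in 1 cluster, in the order Hba-x, Hba-a1, Hbq1b, Hba-a2 and Hbq1a, and the beta-type genes lie in another cluster on a different chromosome. Hba-x encodes the embryonic zeta chain, and Hbq1b and Hbq1a encode theta chains, which are not known to be part of adult hemoglobin. Laboratory strains differ in the haplotype of the beta cluster: Hbb-bt and Hbb-bs are the adult genes of the s haplotype, and Hbb-b1 and Hbb-b2 are those of the d haplotype. The mouse spleen is a site of red cell formation throughout life and also clears old red cells, and it holds blood, so its globin RNA comes from precursors, reticulocytes or both. In such bulk tissue, fewer cells of a type and less RNA per cell cannot be told apart.

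The promoters of 4 globin genes are shown as background on these related genes. Whether their motifs relate to the readings of the probes was not tested. Each window runs from 250 bases before to 50 bases after the gene start (RefSeq, build GRCm38.p6), and is written 5′ to 3′ on the gene's strand. Capitals mark every match, on either strand, to 4 motifs. The GATA motif, bound by Gata1 in erythroid cells, was searched as GATAA. The box that Klf1 and its relatives bind was searched as CACCC. The CAAT box, a general promoter element, was searched as CCAAT. The TATA-like box, which places the start of transcription, was searched as ATATAA. Hba-a1 lies on the plus strand at chr11:32283422-32283721, Hbb-bt on the minus strand at chr7:103813874-103814173, Hbq1b on the plus strand at chr11:32286714-32287013 and Hba-x on the plus strand at chr11:32276350-32276649.
Hba-a1: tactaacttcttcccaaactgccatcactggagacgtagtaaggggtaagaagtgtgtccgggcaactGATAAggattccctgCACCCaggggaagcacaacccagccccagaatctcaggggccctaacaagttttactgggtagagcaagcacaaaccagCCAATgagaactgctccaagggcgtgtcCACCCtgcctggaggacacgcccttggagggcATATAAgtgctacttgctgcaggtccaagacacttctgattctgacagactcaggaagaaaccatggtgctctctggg
Hbb-bt: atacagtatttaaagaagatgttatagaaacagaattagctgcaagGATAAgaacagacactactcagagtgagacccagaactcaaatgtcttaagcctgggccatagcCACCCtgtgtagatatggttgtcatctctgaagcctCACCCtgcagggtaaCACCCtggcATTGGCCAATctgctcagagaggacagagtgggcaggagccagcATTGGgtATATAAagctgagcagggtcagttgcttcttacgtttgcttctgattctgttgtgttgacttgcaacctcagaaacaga
Hbq1b: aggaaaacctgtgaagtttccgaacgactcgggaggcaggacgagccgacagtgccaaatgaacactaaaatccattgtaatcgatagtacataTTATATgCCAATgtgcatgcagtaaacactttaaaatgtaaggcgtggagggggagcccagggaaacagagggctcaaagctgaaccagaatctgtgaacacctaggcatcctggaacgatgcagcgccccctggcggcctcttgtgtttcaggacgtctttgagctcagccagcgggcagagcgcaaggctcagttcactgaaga
Hba-x: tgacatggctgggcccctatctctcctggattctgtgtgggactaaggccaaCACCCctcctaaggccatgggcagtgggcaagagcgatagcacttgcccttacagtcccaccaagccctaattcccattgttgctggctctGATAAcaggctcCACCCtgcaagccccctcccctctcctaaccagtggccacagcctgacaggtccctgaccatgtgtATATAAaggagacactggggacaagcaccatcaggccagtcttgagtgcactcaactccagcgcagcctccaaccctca

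Hba-a1 and Hbb-bt held all 4 motifs, which 0.709% of the 32851 promoter windows in the table also did. Hba-x held all but the CAAT box, and Hbq1b held neither the GATA motif nor the CACCC box. The TATA-like match began 28 or 29 bases before the gene start in Hba-a1, Hbb-bt and Hba-x, all on the plus strand. In Hbq1b it stood 156 bases before the start and on the other strand, so these letters did not occur in the theta promoter at the distance seen in the others. Alone, the GATA motif occurred in 25.4% of windows, the CACCC box in 57.5%, the CAAT box in 37.4% and the TATA-like box in 9.82%. Within Hbb-bt a forward and a reverse CAAT box abut, and no match of one motif overlapped another motif in the 4 windows. The promoter of Hbq1b was identical to that of Hbq1a at 286 of 300 bases, or 95.3%, and that of Hba-a1 was identical to that of Hba-a2 over all 297 bases compared after a shift of 3. This identity covers the promoters only. Neither transcripts nor probe sequences were compared, so whether the probes for Hbq1b and Hba-a1 also bind transcripts of Hbq1a and Hba-a2 was not tested.

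Between 12084 and 12595 probes were detected on the KO arrays, against 12545 to 13149 on the wild-type arrays, where detected means a detection p-value under 0.05 against the array's negative control beads. The probe of Rag2 was below detection on all 6 arrays and gave no check of the labels, and both Prf1 probes were detected on all 6, with the brighter at 11.48 ± 0.54 log2 in KO and 11.14 ± 0.36 in wild type (SD, n = 3). KO replicate 2 stood apart in Xist, whose 2 probes were detected on the other 5 arrays but not on that one. Values below are raw intensity, the brightness of a probe on a linear scale, or normalized log2 intensity. Differences are KO minus wild type on the log2 scale, from a linear model in limma over 12885 probes detected on at least 3 arrays, with calls made where the p adjusted over all of them (Benjamini-Hochberg) was under 0.05.

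**Figure D1:**
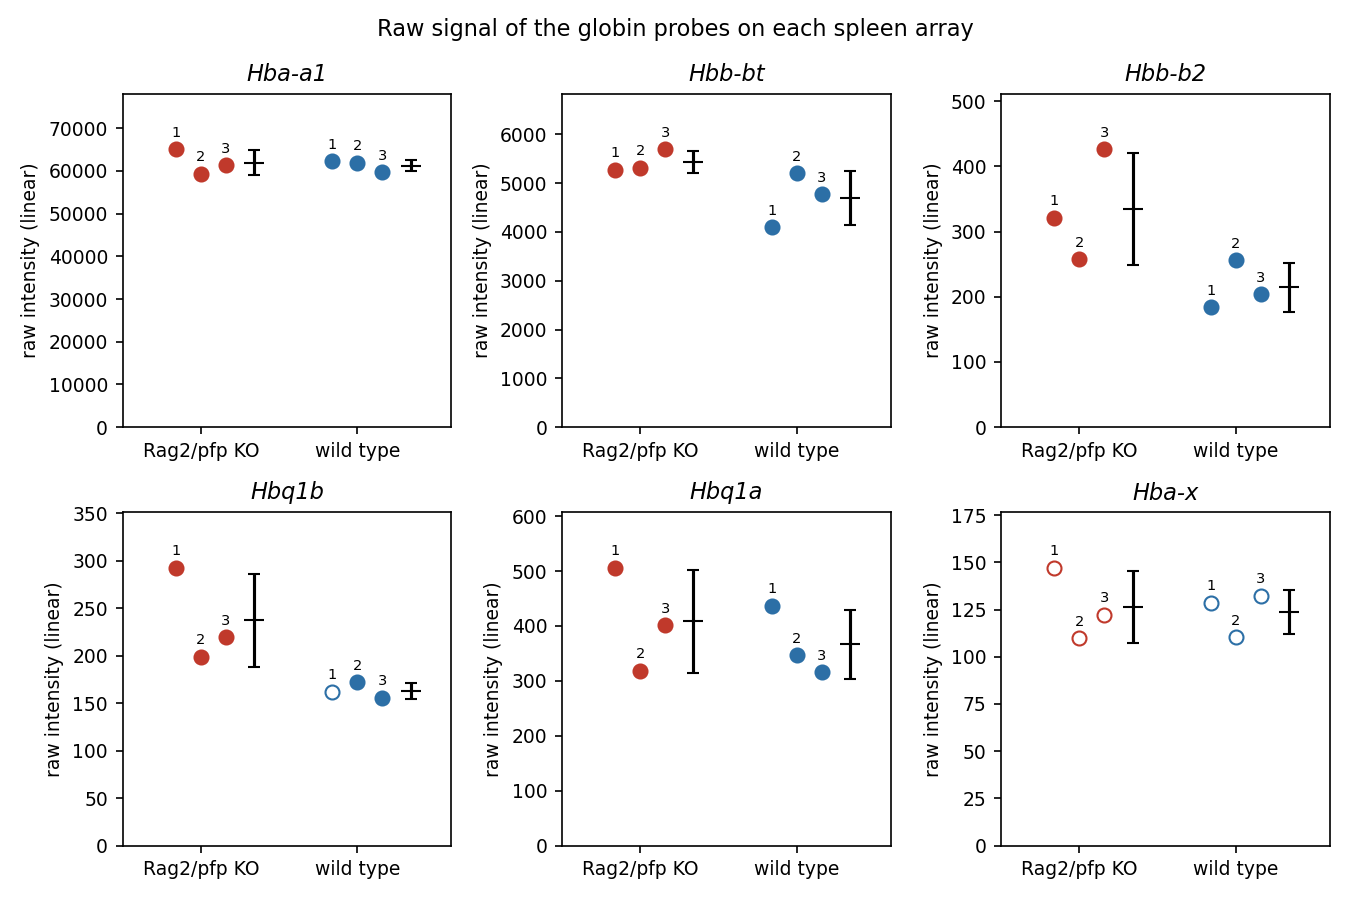
Raw intensity, on a linear axis from 0, of 6 globin probes (those of Hba-a1, Hbb-bt, Hbb-b2, Hbq1b, the second theta gene Hbq1a, and Hba-x) on 3 Rag2/pfp KO and 3 wild-type arrays, numbered by replicate. Filled points were detected (p under 0.05) and open points were not, and bars give mean and SD. Hbq1b, Hbb-b2 and Hbb-bt lie higher on every KO array than on any wild-type array, Hba-a1 lies between 59324 and 65110 on all 6, and Hba-x was not detected on any.

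The alpha-globin gene Hba-a1 was at or next to the top of every array and showed no difference between the groups that the array could measure. Its raw intensity was 65110, 59324 and 61296 on KO replicates 1 to 3, against 62235, 61894 and 59671 on wild-type replicates 1 to 3. The ranges overlapped, and the highest and the lowest of the 6 values were both KO arrays. The probe ranked 2 on all 3 KO arrays and on wild-type replicate 1, and ranked 1 on wild-type replicates 2 and 3.

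These values lie at 96.5% to 100% of the highest intensity on the same array. The highest intensity of any probe was 65296, on KO replicate 1, or 99.6% of the top of a 16-bit scale (65535), and on the other 5 arrays the highest probe stood at 91.1% to 97.7% of it. The files hold no saturation flag and how the scanner was set is not stated in the labels. Because quantile normalization gives each rank a fixed value, Hba-a1 read 15.88 log2 wherever it ranked 2 and 15.93 wherever it ranked 1, whatever its brightness. The difference that follows, -0.03 ± 0.21 (SE, limma adjusted p = 0.969), is a difference of 1 rank on 2 wild-type arrays and is no measure of alpha-globin RNA. Its sign turned under other scalings, to 0.01 without normalization between arrays, 0.19 with median centring and 0.01 on raw log2 intensities.

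Slc4a1, the band 3 anion exchanger of the red cell membrane, was among the brightest probes too, though well below Hba-a1 on the wild-type arrays. It read 64444, 54358 and 61615 raw intensity on KO replicates 1 to 3, against 45417, 46131 and 41072 on wild-type replicates 1 to 3. The groups did not overlap, and the difference of 0.45 ± 0.21 log2 (SE) was not called (limma adjusted p = 0.321). Slc4a1 ranked 4, 4 and 1 in KO, against 14, 11 and 14 in wild type. On KO replicates 1 and 3 it too lay near the top of the scale. Where it ranked 1, on KO replicate 3, it took the fixed value of that rank, 15.93 log2. Whether the top of the scale limits the size of its difference was not tested.

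**Figure D2:**
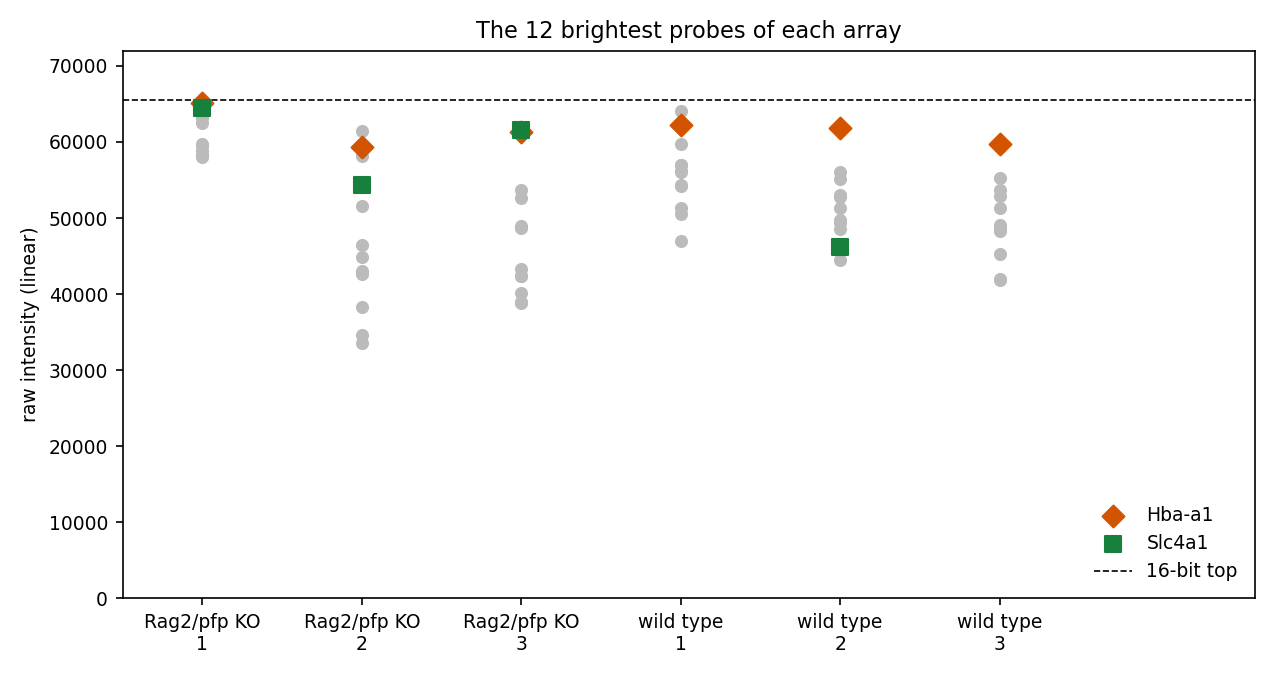
Raw intensity, on a linear axis from 0, of the 12 brightest probes on each of 6 arrays, KO at the left, with Hba-a1 as diamonds, Slc4a1 as squares where it was among the 12, and the top of a 16-bit scale (65535) as a dashed line. Hba-a1 is the highest or next highest point on every array, and Slc4a1 is absent from the 12 on wild-type replicates 1 and 3.

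The adult beta-type probes lay lower on their arrays, well away from the top. Hbb-bt, an adult beta-globin gene, had a raw intensity of 5280, 5322 and 5699 on KO replicates 1 to 3, against 4095, 5200 and 4779 on wild-type replicates 1 to 3. All 3 KO values were above all 3 wild-type values, with little room between KO replicate 1 and wild-type replicate 2. After normalization the groups overlapped, at 12.08, 12.68 and 12.64 log2 in KO, against 11.74, 12.25 and 12.26 in wild type.

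Replicate 1 was the lowest array of each group for Hbb-bt. The difference was 0.39 ± 0.27 log2 (SE), a fold of 1.31, and was not called (limma adjusted p = 0.524). Hbb-bt was 6.39% to 9.25% as bright as the brightest probe of its array, far from the top of the scale where Hba-a1 lies. Hbb-bs, the other adult gene of the s haplotype, had no probe. The haplotype of the mice is not in the labels, so whether this probe reads Hbb-bt itself or a similar beta transcript was not tested. Its brightness is thus no measure of all adult beta-globin RNA against alpha-globin RNA.

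Hbb-b2, the adult minor beta-globin gene of the d haplotype, differed more. Its raw intensity was 321, 257 and 426 on KO replicates 1 to 3, against 184, 256 and 204 on wild-type replicates 1 to 3. KO replicate 2 and wild-type replicate 2 were nearly equal, yet the groups did not overlap. On the normalized scale it read 7.59, 7.71 and 8.66 log2 in KO, against 5.70, 6.94 and 6.49 in wild type, a difference of 1.61 ± 0.39 (SE) and a fold of 3.06.

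That difference missed the threshold, at a limma adjusted p of 0.056. It is called at adjusted p = 0.0488 if only probes detected at p under 0.01 on all 3 arrays of at least 1 group are tested. The size leans on the subtraction of background from a dim probe, being 0.89 log2 in the authors' deposited log2 values and 0.63 on raw log2 intensities. The spread within groups was wide, 1.07 log2 among KO arrays and 1.24 among wild-type arrays. Which beta haplotype the mice carry is not in the labels, so whether this probe reads Hbb-b2 itself or a similar beta transcript was not tested.

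The theta-globin gene Hbq1b rose in the KO spleens and was the 1 member of the family that was called. Its raw intensity was 293, 199 and 220 on KO replicates 1 to 3, against 162, 172 and 156 on wild-type replicates 1 to 3. Every KO array was above every wild-type array, and KO replicate 1 stood highest. Hbq1b was detected on all 3 KO arrays and on 2 of 3 wild-type arrays, with detection p-values of 0.0514, 0.010 and 0.0464 on wild-type replicates 1 to 3, so its wild-type level is close to background.

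On the normalized scale Hbq1b read 7.39, 6.95 and 7.14 log2 in KO, against 5.30, 5.78 and 5.45 in wild type, which is 7.16 ± 0.22 in KO and 5.51 ± 0.25 in wild type (SD, n = 3). The difference of 1.65 ± 0.24 (SE) is a fold of 3.15 (limma adjusted p = 0.00682). It was the 15th largest among the 126 higher calls. The fold depends on background correction: in the authors' deposited log2 values, which have none, the means were 8.0 ± 0.12 for KO and 7.30 ± 0.09 for wild type (SD, n = 3), and the difference of 0.70 was still called (adjusted p = 0.0349). Without KO replicate 2, the array without Xist signal, the difference was 1.80 and still called. The call was lost without wild-type replicate 1 (adjusted p = 0.0724) or 3 (0.0618), without normalization between arrays (0.0502) and on raw log2 intensities (0.153), with the direction kept in each.

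Hbq1a, the other theta-globin gene, has a probe of its own and gave a smaller difference. It read 506, 319 and 401 raw intensity on KO replicates 1 to 3, against 437, 347 and 316 on wild-type replicates 1 to 3, with overlap between the groups. After normalization the groups separated, at 8.51, 8.20 and 8.54 log2 in KO, against 7.91, 7.65 and 7.64 in wild type. The difference of 0.68 ± 0.23 log2 (SE) was not called (limma adjusted p = 0.145). Whether the probes of Hbq1b and Hbq1a each read both theta transcripts was not tested.

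The embryonic globin genes lay at or close to background on these arrays. Hba-x, the zeta chain, read 147, 110 and 122 raw intensity in KO, against 128, 110 and 132 in wild type, and was detected on 0 of 6 arrays. The embryonic beta-type gene Hbb-bh1 was also detected on no array. Of the 2 probes of Hbb-y, the embryonic epsilon-type gene, 1 was detected on no array and the other on 1 KO and 1 wild-type array. None of these was tested, and they are not well above background rather than shown to be absent.

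Of the 4 tested globin probes, 1 was called higher and 0 lower, where 0.978% of all tested probes were called higher. On 2 of the 4, Hbq1b and Hbb-b2, every normalized KO value was above every wild-type value, which held for 12.4% of all tested probes. The median difference was 1.0 log2 over the 4, beside 0.03 over all tested probes, and it includes Hba-a1, whose difference carries no information. Hbq1b would have passed the filter on detection through its KO arrays alone, so these counts and this median only describe the probes that passed.

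Whether Hbq1b changed by another amount than the adult chains was asked from the log2 ratio of the probes within each array. The ratio of Hbq1b to Hbb-bt was 1.27 log2 higher in KO than in wild type, and the ratio of Hbq1b to Hbb-b2 was 0.04 higher. With 3 arrays against 3 a two-sided exact permutation test cannot go below p = 0.1, the value reached for Hbb-bt (0.15 adjusted over 3 ratios), and it gave p = 1 for Hbb-b2. The ratio to Hba-a1, 1.68 higher (exact permutation p = 0.1), rests on a probe at the top of the scale. The ratio to Hbb-bt shrank to 0.32 (exact permutation p = 0.4) in the authors' deposited log2 values, so unequal change of theta and beta genes was not shown.

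**Figure D3:**
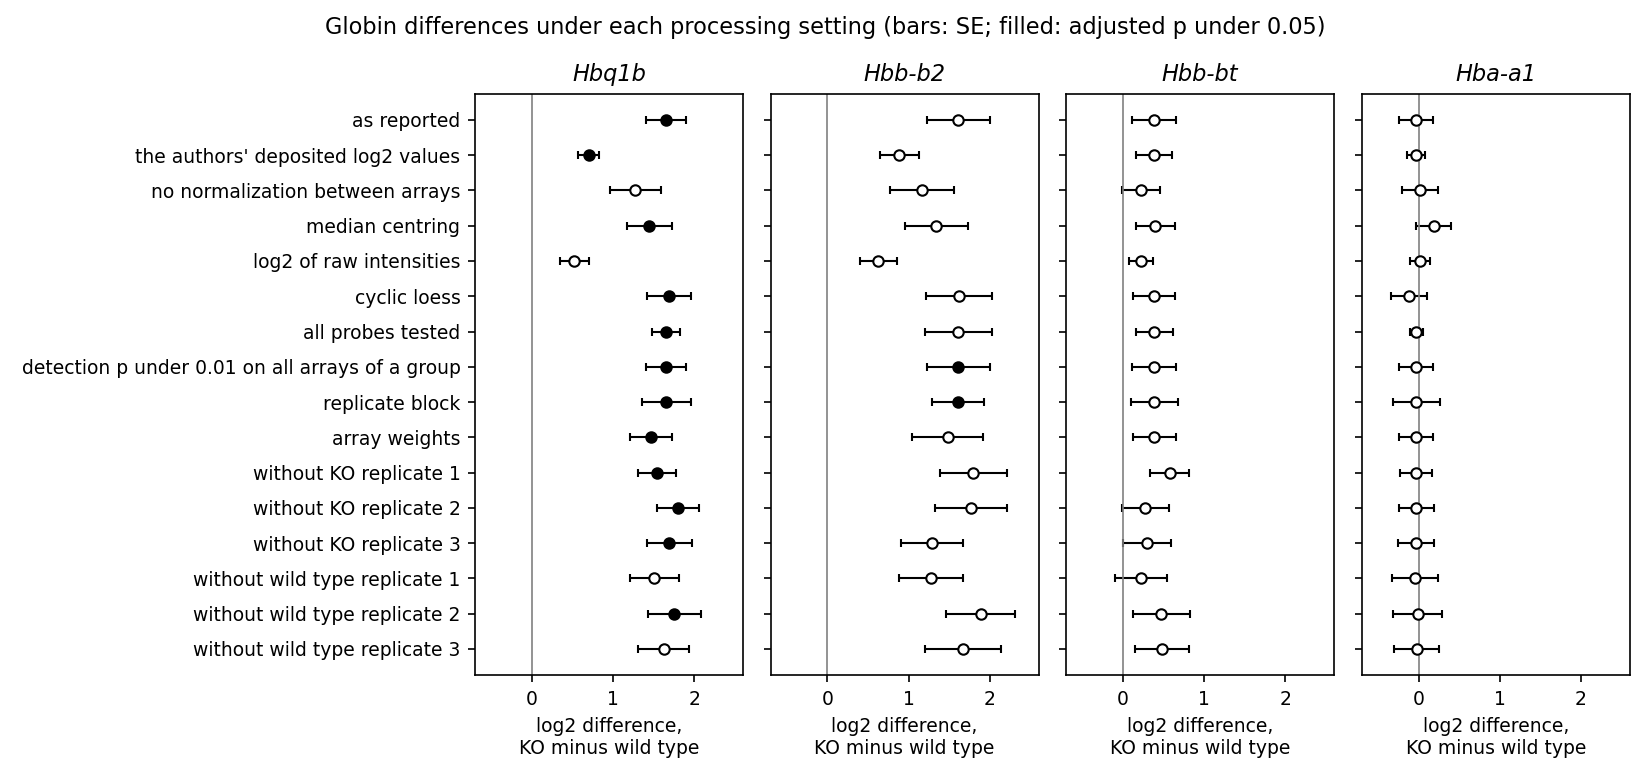
Difference between KO and wild-type spleens on the log2 scale (x axis, bars are SE) for 4 globin probes under the reported processing and 15 alternatives (rows), filled where the limma adjusted p is under 0.05. Hbq1b, Hbb-b2 and Hbb-bt lie above 0 in every row, while Hba-a1 crosses 0 with the scaling.

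Over the 6 arrays Hbq1b went most with Hbb-b2 among the globin probes, with a Pearson correlation of 0.88, beside 0.81 for Hbb-bt with Hbb-b2 and 0.56 for Hbb-bt with Hbq1b. Outside the family, the genes most like Hbq1b were Zfp41 (r = 0.996), 9530077C05Rik (0.994) and Leng1 (0.992), and Leng1 rose by 1.65 ± 0.25 log2 (limma adjusted p = 0.00732). Those most like Hbb-b2 were Wwp2 (0.997), Dnajb6 (0.995) and Hjurp (0.989). For Hbb-bt they were Nrxn2 (0.995), Asap3 (0.993) and Irak1 (0.990). No likeness is given for Hba-a1, whose log2 values take only 2 levels set by rank. All are the highest of 9158 genes over only 6 arrays in 2 groups, so values near 1 arise readily.

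Genes flanking the alpha-globin cluster were read after the globin values were seen, taking 5 protein-coding genes on each side in the RefSeq table. Nprl3, whose introns hold the main enhancers of the alpha-globin genes, differed by 0.81 ± 0.23 log2 (SE) and was not called (limma adjusted p = 0.0949). Rhbdf1, an inactive rhomboid protease gene further out on that side, fell by 1.20 ± 0.26 (adjusted p = 0.0379). Mpg, a DNA glycosylase gene between them, differed by 0.30 ± 0.28 and Snrnp25 by 0.47 ± 0.23, and neither was called. On the other side Sh3pxd2b differed by 0.37 ± 0.39 and Ubtd2 by -0.01 ± 0.27. Among these neighbours the 1 call was lower, where Hbq1b was higher. The other 4 flanking genes, Il9r, Efcab9, Stk10 and Fbxw11, were not tested.

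Genes of the programme that makes and packages hemoglobin lay mostly above 0 in KO minus wild type, with few single genes past the threshold. Across all 9158 tested genes, 1.04% were called higher and 2.88% lower, and the median difference was 0.03 log2. Of 19 tested erythroid transcription factors and globin regulators, 3 rose and 0 fell, with a median difference of 0.65 log2. Gfi1b, a repressor needed for red cell maturation, rose by 1.29 ± 0.26 (SE, limma adjusted p = 0.0273). Klf1, an activator of adult beta-globin, rose by 1.28 ± 0.24 (adjusted p = 0.0214). Epor, which encodes the receptor of erythropoietin, rose by 1.25 ± 0.29 (adjusted p = 0.0474). Of the 15 processing alternatives, Gfi1b was called in 9, Klf1 in 10 and Epor in 5. Bcl11a, a repressor of embryonic globins that is named here after its values were seen, differed by -0.03 ± 0.26 and was not called.

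Heme synthesis genes, which supply the group that binds oxygen, had a median difference of 0.74 log2, with 11 of 11 above 0 and 0 called by limma. At an unadjusted limma p under 0.05 there were 9 of the 11, beside 18.4% of all tested genes. The same threshold held 10 of the 19 regulators, 11 of 14 membrane and skeleton genes and 6 of 10 late red cell enzyme genes. Of the genes that handle free hemoglobin and heme it held 2 of 9. The count of heme synthesis genes called was 3 in the authors' deposited log2 values, 2 with array weights and 2 without KO replicate 3. Urod differed by 0.74 ± 0.23 (adjusted p = 0.114), and Alas2, which starts the pathway in erythroid cells, by 0.71 ± 0.22 (adjusted p = 0.126), and both were called in the authors' deposited log2 values (limma adjusted p = 0.0442 for Urod and 0.0481 for Alas2). Red cell membrane and skeleton genes had a median of 1.07 log2, and 4 of 14 rose. Icam4, an adhesion protein of erythroid cells, rose by 1.48 ± 0.33 (limma adjusted p = 0.0423). Dmtn, which encodes dematin, rose by 1.37 ± 0.25 (0.019) and the ankyrin gene Ank1 by 1.30 ± 0.28 (0.0372). The adducin gene Add2, named after its values were seen, rose by 1.17 ± 0.26 (0.0393). Of the 15 processing alternatives, Icam4 was called in 4, Ank1 in 6 and Dmtn in 10. Add2 was dim, and its raw intensities overlapped, at 218, 163 and 191 in KO against 175, 140 and 148 in wild type. With detection at p under 0.01 required, 3 genes of this list were called, Icam4, Dmtn and Ank1 among them.

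Of 10 late red cell enzyme genes, 1 rose, and the median was 0.74 log2. That gene, named after its values were seen, was Cat, catalase, at 1.99 ± 0.43 (limma adjusted p = 0.0388). Its raw intensity was 4303, 850 and 1385 on KO replicates 1 to 3, against 828, 693 and 437 in wild type. The count for this list was 0 in the authors' deposited log2 values, with cyclic loess and without KO replicate 3. It stayed at 1 with array weights and without KO replicate 1. The brightest members, Gpx1 at 0.39 ± 0.27 and Prdx2 at 0.72 ± 0.27, were not called. Genes that handle free hemoglobin and heme had a median of 0.11 log2 over 9, with 0 higher and 1 lower. The 1 that fell, named after its values were seen, was Hp, which encodes the hemoglobin scavenger haptoglobin, at -1.80 ± 0.38 (adjusted p = 0.0352). Whether this fall is part of that of the neutrophil markers, given below, was not tested. Fth1, ferritin heavy chain, differed by 0.11 ± 0.22 and the iron exporter gene Slc40a1 by 0.01 ± 0.29.

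Of the erythroid regulator, heme, membrane and enzyme lists together, 8 genes rose, and this count was 0 without any single wild-type array and 0 without normalization between arrays. The mean of these lists relative to wild type was highest on KO replicate 1, at 0.72 to 1.5 log2, against 0.35 to 0.84 on KO replicates 2 and 3. Hbq1b was also highest on KO replicate 1, whereas the normalized values of Hbb-bt and Hbb-b2 were lowest there among the KO arrays. No tested globin probe other than Hbq1b was called, and the other globin-fold genes Cygb and Ngb differed by 0.07 ± 0.58 and 0.28 ± 0.23 log2 (SE), neither of them called.

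**Figure D4:**
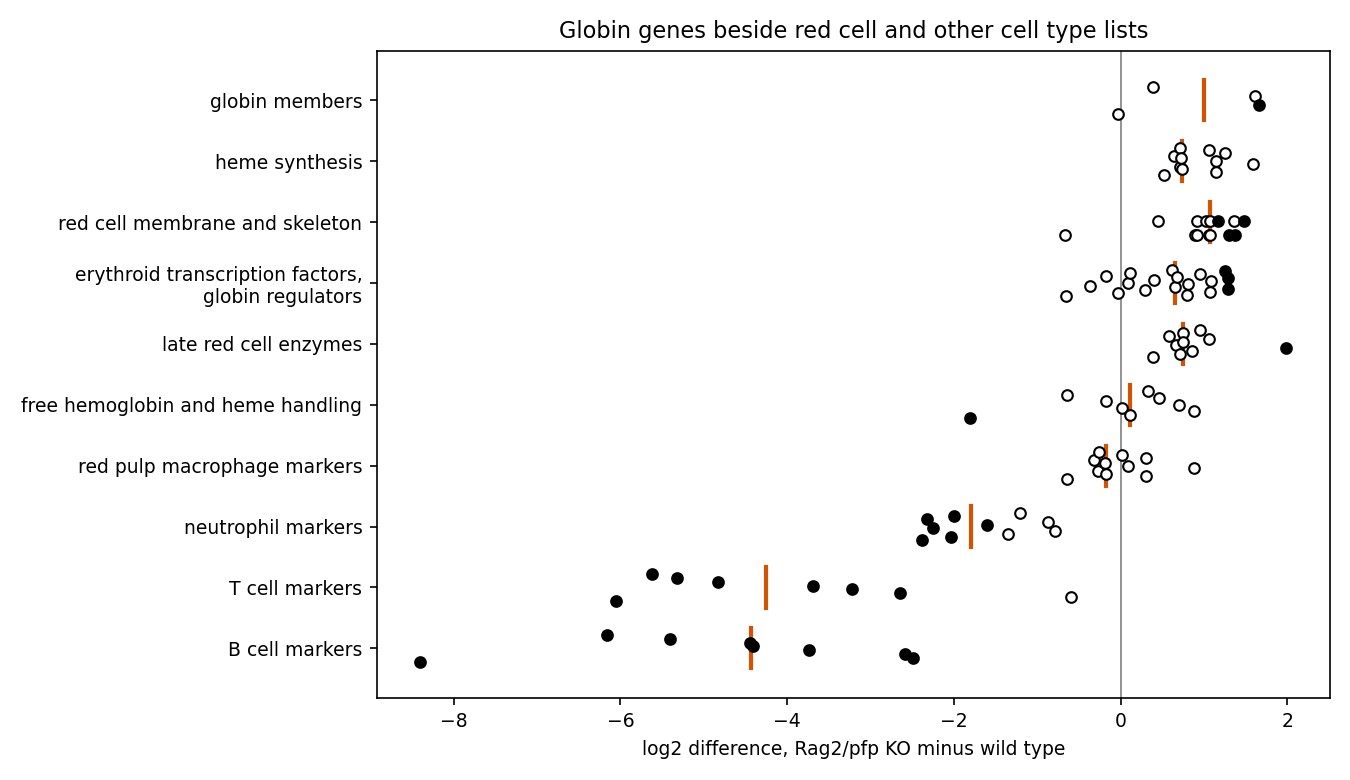
Difference between KO and wild-type spleens on the log2 scale (x axis) for each tested gene of the globin family and of 9 lists (rows), with filled points called by limma at adjusted p under 0.05, open points not called, and a vertical bar at each median. Heme, membrane and regulator genes lie mostly above 0 beside the globins, and most B and T cell markers lie far below 0, drawn at fitted values also where no KO array detected them.

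Most markers of B cells, T cells and neutrophils fell in KO, and no red pulp macrophage marker was called. All 8 tested B cell markers fell, with a median of -4.43 log2, and 7 of 8 T cell markers fell, with a median of -4.26. The summed normalized intensity of the B cell markers was 695 to 932 on KO arrays, against 28279 to 33065 on wild-type arrays, and that of the T cell markers was 324 to 426, against 9439 to 10853. On the KO arrays 3 of the 8 B cell markers and 4 of the 8 T cell markers were detected on none, so that their KO level is only a bound, set on each array by the dimmest detected probe or the marker's own signal where higher. With those genes at their bound, the median was -4.43 log2 for B cells and -4.02 for T cells. The IgM Fc receptor gene Fcmr was at least 248-fold lower in KO (limma adjusted p = 1.77e-07), and Cd3e, part of the signalling unit of the T cell receptor, at least 49.0-fold lower (adjusted p = 3.14e-06). Without any 1 wild-type array 5 genes of each list could still be tested, and the calls were 5 for B cells and 3 to 4 for T cells.

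Of 10 neutrophil markers 6 fell, the median was -1.80 log2, and the summed intensity was 39186 to 101326 in KO, against 175906 to 192374 in wild type. Of 11 red pulp macrophage markers, which stand for the cells that clear old red cells, 0 were called by limma, 0 had an unadjusted p under 0.05, and the median was -0.18 log2. Vcam1 differed by -0.27 ± 0.33 and Slc40a1, given above, by 0.01 ± 0.29. The part of the B cell, T cell and neutrophil markers' shift in the globin and erythroid values was not tested.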

How the data were processed

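Spleen RNA of 3 Rag2/pfp KO and 3 wild-type samples, grouped by their titles, was read on 6 arrays. The authors deposited raw intensity per probe with a detection p-value, per the file headers, and the submitters' processing notes name GenomeStudio 2011.1. The authors also deposited log2 values, which matched quantile-normalized log2 intensity without background correction to within 5e-07. Their scale is thus known, and no direction or centring applies.

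Intensities were background corrected and quantile normalized with neqc (offset 16) in limma 3.58.1 (R 4.3.3). For dim probes the offset shrinks log2 differences, while background correction enlarges them. Hbq1b differed by 1.65 here, against 0.52 on raw log2 intensities, and Hbb-b2 by 1.61, against 0.63. The size given for dim probes is therefore uncertain in either direction. Probes detected on at least 3 arrays were fitted with lmFit and eBayes (two-sided, group only). A gene was read from its brightest tested probe. Symbols came from the platform table, updated through RefSeq (GRCm38.p6): of 25697 probes, 23978 carried 1 symbol and 0 more than 1, and 1719 stayed without a name. All probes of the globin genes were named. From each list, up to 3 called genes with the largest change were named, or the 2 brightest where fewer than 2 were called, as were the 3 genes most correlated with each globin probe (those for Hba-a1 are left out, since its log2 values are set by rank). The members and lists were chosen with earlier results of these data known. Precision is limited by there being 3 arrays in each group.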

Additional observations from a re-analysis of the deposited data

How the results depend on the processing

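Hbq1b, Hbb-b2 and Hbb-bt were above 0 under all 15 alternatives, and Hbq1b was called under 11 of them. Without normalization between arrays, with median centring and on raw log2 intensities, all tested probes together had a median of -0.33, -0.16 and -0.20 log2. Relative to that median Hbq1b differed by 1.61, 1.61 and 0.73, Hbb-b2 by 1.5, 1.5 and 0.83 and Hbb-bt by 0.56, 0.56 and 0.42. Hba-a1 differed from it by 0.35, 0.35 and 0.22, while the sign of Hba-a1 itself turned, to 0.0143, 0.19 and 0.0142. With Hba-a1 at the top of the scale, these values are no measure of alpha-globin RNA. Hbq1b was no longer called without normalization between arrays (1.27) and on raw log2 intensities (0.52). It ranged from 1.51 to 1.80 with 1 array left out, and was not called without wild-type replicate 1 or 3. Hbb-b2, at 1.61, was called only with the stricter detection filter and with the replicate block (adjusted p = 0.0488 and 0.00346). The count of globin probes called was 0 without normalization between arrays and on raw log2 intensities, 2 with the stricter filter and the replicate block, and 0 to 1 with 1 array left out. The ratio of Hbq1b to Hbb-b2 turned to -0.19 in the authors' deposited log2 values and -0.11 on raw log2 intensities.

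The 8 erythroid genes called higher became 0 without normalization between arrays, 2 with median centring, 0 on raw log2 intensities, 5 with cyclic loess, 3 with all probes tested, 16 with the replicate block (5 of them heme synthesis genes, of which 0 were called without it) and 0 to 8 with 1 array left out. Over all probes there were 126 higher and 379 lower calls. Under the same 3 scalings in that order, higher calls were 16, 49 and 10, and lower calls 857, 661 and 788. Higher calls were 78 with all probes tested, 316 with the replicate block and 257 with array weights, and lower calls 571 with the block. With 1 array left out they were 6 to 193 and 106 to 467. The causes were not tested. Same-numbered arrays deviated from their group means with correlations of 0.495, -0.283 and -0.0368, and only replicate 1 correlated best with its own number. A pairing of all samples by replicate number was therefore not seen, though 3 arrays in each group are too few to exclude it. The labels name no pairing, and the sample descriptions carry the same number in both groups for replicate 1 only. Calls made with the replicate block therefore rest on an assumed pairing. Signal over background limits the size given for Hbq1b and Hbb-b2. The top of the scale limits Hba-a1 and may limit Slc4a1.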
